A study of Mus musculus with 24 samples.

Results

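The 10 genes described here encode the main apolipoproteins of the liver (Apoa1, Apoa2, Apoa4, Apoa5, Apob, Apoc1, Apoc2, Apoc3 and Apoe) and Mttp, the transfer protein that loads lipid onto ApoB. They were taken by symbol from a list made with earlier results of these data known, all 10 of 10 were among the 15160 genes listed, and all 10 were among the 13336 genes that passed the filter on low counts. Liver RNA of 24 male mice, 6 per group, was sequenced as 3′ tag libraries (QuantSeq), in which reads come from near the 3′ end of a transcript. The study asked whether hepatic Nfe2l2, which encodes NRF2, a transcription factor of the response to oxidative stress, is needed for the response to dietary methionine restriction (MR). WT mice carried the floxed allele without Cre (NRF2fl/fl), and their littermates, NRF2 KO mice, carried the same floxed allele with Cre under the albumin promoter (NRF2fl/(alb)), which is active in hepatocytes, so that other cells of the liver keep the gene. The control diet (Con) held 0.86% methionine and the MR diet 0.17%, both with free amino acids and no cysteine. Mice began the diets at 8 weeks of age and ate them for 8 weeks by the labels, were labelled as 5 months old and were fasted for 4 h before the liver was taken. The study left out 2 mice (named here by group and number), WT_CON_7604 and WT_MR_7612, as outliers of a principal component analysis, which left 5 and 5 WT mice on Con and MR, and 6 and 6 NRF2 KO mice (NRF2 KO Con and NRF2 KO MR).

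The liver exports triglyceride and cholesterol in very low density lipoproteins (VLDL). Each VLDL particle is built on a single ApoB molecule, which Mttp lipidates in the endoplasmic reticulum, and in plasma the particle carries exchangeable apolipoproteins: ApoC2 activates lipoprotein lipase, ApoC3 inhibits it and slows uptake of remnants, ApoC1 is a small exchangeable protein that also slows uptake, ApoA5 promotes lipolysis, and ApoE is the ligand by which remnants are taken up. ApoA1 is the scaffold of high density lipoproteins (HDL) and ApoA2 their second major protein, and ApoA4 is made by the intestine and, in the mouse, also by the liver.

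In GRCm38 (GENCODE M21), 4 of the 10 genes lie within 43.3 kb of chromosome 9: Apoa1 at chr9:46228580-46230466 (plus strand), Apoc3 at chr9:46232933-46235636 (minus), Apoa4 at chr9:46240696-46243459 (plus) and Apoa5 at chr9:46268633-46271919 (plus). A further 3 lie within 27.6 kb of chromosome 7, all on the minus strand: Apoc2 at chr7:19671579-19677941, Apoc1 at chr7:19689481-19692660 and Apoe at chr7:19696109-19699188. Apoa2 lies at chr1:171225054-171226379 (plus), Apob at chr12:7977648-8016835 (plus) and Mttp at chr3:138089854-138144968 (minus). Apoc2 shares 646 of its 813 exonic bases with Gm44805, a same-strand protein-coding gene that runs past it and is not listed in the count table, so reads on them cannot be assigned to one or the other with certainty. Apoa4, Apoa5 and Mttp overlap genes on the opposite strand, of which only Trmt10a, across from Mttp, is listed.

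The sequence upstream of these genes is shown because 6 of them were lower on MR in the average over genotypes. RefSeq (GRCm38.p6) start sites were given for 8 of the 10 genes. Mttp and Apoa4 had no 100 bases free of annotated exons near that start, and Apoc1 and Apoc3 had no entry. For the other 6 genes the nearest 100 bases upstream of the start that lie outside every annotated exon read as follows, 5′ to 3′ on the strand of the gene, with any match to a searched motif in capitals. Apoa1, Apoa2, Apoc2 and Apoe were called in the average over genotypes, and Apoa5 and Apob were not.
Apoa1, chr9:46228480-46228579, plus strand: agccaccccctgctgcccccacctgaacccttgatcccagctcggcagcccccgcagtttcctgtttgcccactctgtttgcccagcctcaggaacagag
Apoa2, chr1:171224954-171225053, plus strand: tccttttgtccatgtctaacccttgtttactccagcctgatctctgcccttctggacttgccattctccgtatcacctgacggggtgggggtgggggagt
Apoc2, chr7:19677942-19678041, minus strand: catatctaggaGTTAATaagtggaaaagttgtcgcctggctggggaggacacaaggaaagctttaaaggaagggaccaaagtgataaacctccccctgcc
Apoe, chr7:19699189-19699288, minus strand: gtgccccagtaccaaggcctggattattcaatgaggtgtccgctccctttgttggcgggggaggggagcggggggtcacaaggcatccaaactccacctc
Apoa5, chr9:46268533-46268632, plus strand: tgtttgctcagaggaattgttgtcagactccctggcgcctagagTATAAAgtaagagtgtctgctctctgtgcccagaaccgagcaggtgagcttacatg
Apob, chr12:7977548-7977647, plus strand: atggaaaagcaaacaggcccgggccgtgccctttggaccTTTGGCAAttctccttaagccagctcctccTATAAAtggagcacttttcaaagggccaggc
The search covered both strands and 7 motifs: TGACNNNGC for the antioxidant response element that NRF2 binds, TGATGNAAT for ATF4, CAAAGTCCA for HNF4, GTTAAT for HNF1, TGACGTCA for the cAMP response element, TTGCNNAA for C/EBP and TATAAA for the TATA box. The only matches were GTTAAT in Apoc2, TATAAA in Apoa5 and Apob, and the reverse complement of TTGCNNAA in Apob. Over 32851 RefSeq promoter entries, the 100 bases directly upstream of the start, exons not excluded, held TGACNNNGC in 4.82%, TGATGNAAT in 0.387%, CAAAGTCCA in 0.17%, GTTAAT in 2.51%, TGACGTCA in 1.15%, TTGCNNAA in 3.43% and TATAAA in 5.56%. The windows shown for Apoa1 (-150 to -51 from the RefSeq start) and Apob (-129 to -30) lie further upstream, so these shares are not matched to them. A match is a description of these letters and not a binding site.

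Depth ran from 6197291 to 22068338 counts per library with a median of 15019791.5 over the 22 mice. The 3′ counts of Nfe2l2 were no check of the knockout, since whether the counted tags lie in the part of exon 5 that Cre excises was not tested. They were higher in NRF2 KO mice (202 to 339 CPM, counts scaled to a common library total) than in 9 of the 10 WT mice (94.0 to 125). The library labelled WT_CON_7607 stood at 324 CPM, inside the NRF2 KO Con range of 228 to 339. Its Ces1g level, a carboxylesterase looked at after the values were seen, was 31.4 CPM against 130 to 249 in the other 9 WT mice and 14.4 to 26.2 in NRF2 KO Con mice. It was kept with its label. The fold changes of the 10 genes for diet in WT mice and for genotype on Con are also given without it. So are the calls of named pathway genes in those comparisons. Most averages and interactions are given only with this library included. Of the 10 hepatocyte markers, 9 were in the count table (Tf was not), and their summed level was 82379 to 113240 CPM in WT Con and 75062 to 92826 in WT MR mice, and 108040 to 126620 in NRF2 KO Con and 93837 to 116350 in NRF2 KO MR mice. None of the 9 was called for diet in either genotype by edgeR, where 2 in each had an unadjusted p under 0.05 and DESeq2 called 1 in each. In the average over genotypes edgeR called 3 of the 9 for diet, all as lower, where 14.1% of all genes were called as lower. For genotype, edgeR called 1 as higher in NRF2 KO mice in the average over diets. DESeq2 called 2 as higher in NRF2 KO mice on MR, and neither called any as lower. All levels here are CPM after TMM scaling, and since 3′ tags and shared exons differ between genes they are compared within a gene only. Nothing in the labels places mice in a shared litter or batch, and each p-value sets a group difference against the spread between these mice.

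MR was accompanied by lower mRNA of several apolipoproteins in both genotypes. In WT mice, 3 of the 10 genes fell (Apoa1, Apoc2 and Apoc3) and none rose at an adjusted or unadjusted p, where 13.8% of the 13336 genes tested were called in either direction, 6.91% as lower and 6.91% as higher. In NRF2 KO mice, 4 fell (Apoa1, Apoc2, Apoc3 and Apoe) and none rose at either p, against 12.6% of genes called in either direction, 6.34% as lower and 6.23% as higher. The median log2 fold change over the 10 genes was -0.31 in WT and -0.37 in NRF2 KO mice, beside -0.0062 and -0.0042 over all genes tested. DESeq2 called 4 and 4 of the 10 as lower and none as higher. In the average over both genotypes, 6 fell (the same 4 with Apoa2 and Apoc1), where 27.4% of all genes were called, 14.1% as lower. The fold change was below 0 for 9 of 10 genes in WT (all but Mttp) and for 10 of 10 in NRF2 KO mice, but with scaling by library size alone Apoa5 (0.10) was above 0 in WT and Mttp (0.02) in NRF2 KO mice. That scaling, which moved the median of all genes by +0.09 in WT, +0.15 in NRF2 KO mice and +0.12 in the average, left 26.8% of the diet calls in WT and 13.9% in NRF2 KO mice as lower, beside 50.0% and 50.4% with TMM. In RNA of whole liver, fewer cells of a type and less RNA per cell cannot be told apart.

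**Figure D1:**
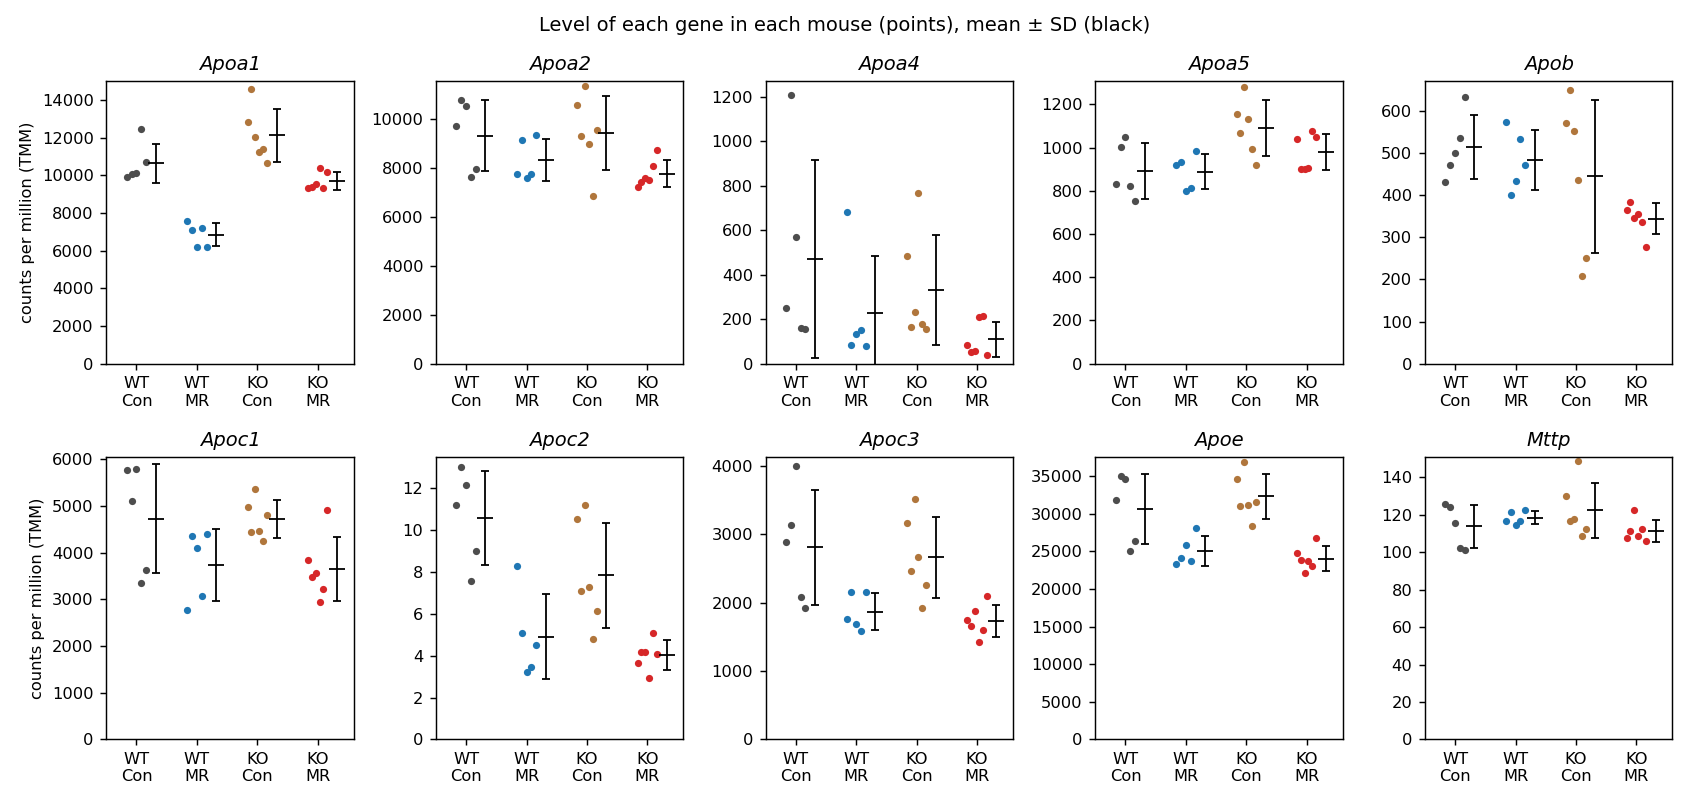
Level of each of the 10 genes in each of the 22 mice (points, CPM after TMM scaling, linear axis from 0) by group, with mean ± SD in black to the right of the points; KO stands for NRF2 KO. Apoa1 in WT MR (6193 to 7553 CPM) lies below every other group, and in Apoa4, where single mice differ most, the lower error bar of WT MR would pass below 0 and ends at the axis.

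**Figure D2:**
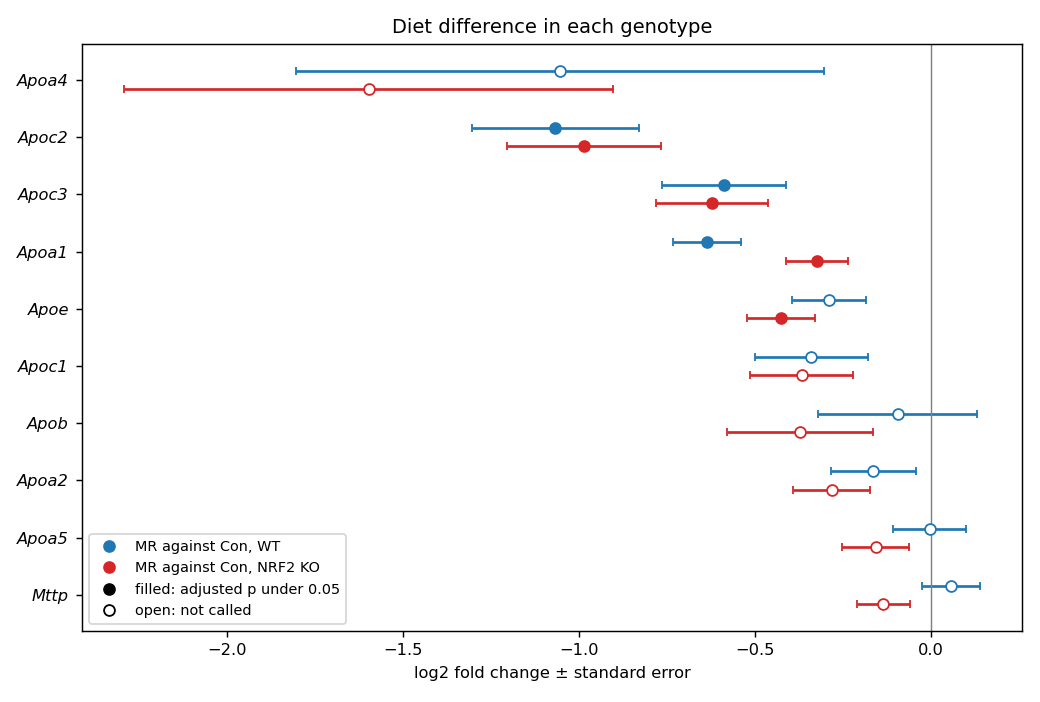
Log2 fold change of MR against Con (horizontal axis, ± standard error) for each gene in WT and NRF2 KO mice from the quasi-likelihood fit; filled points passed an adjusted p of 0.05. Apoc2 lies near -1 in both genotypes (-1.07 and -0.98), Apoa1 is filled in both (-0.64 and -0.32), and Mttp (0.06 and -0.13) and Apoa5 (-0.003 and -0.16) lie near 0.

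Apoa1, the HDL scaffold, had the smallest adjusted p for diet of the 10 genes in WT mice and fell in both genotypes. The 5 WT Con mice measured 9892, 10058, 10146, 10687 and, in the library labelled WT_CON_7607, 12440 CPM, and the 5 WT MR mice 6193, 6195, 7109, 7198 and 7553 CPM. Every WT MR mouse was below every WT Con mouse. The means were 10645 ± 1047 and 6850 ± 621 CPM (SD, n = 5 each), a log2 fold change of -0.64 ± 0.10 (SE), or 35.7% lower (edgeR quasi-likelihood, adjusted p = 0.000126; exact two-sided permutation p = 0.0079, the smallest that 5 against 5 can give). Without the library labelled WT_CON_7607 the WT Con mean was 10196 ± 344 CPM (n = 4) and the log2 fold change -0.57 (adjusted p = 0.000481). In NRF2 KO Con mice Apoa1 ran from 10682 to 14590 CPM with a median of 11708, and in NRF2 KO MR mice from 9320 to 10386 with a median of 9453. Again the groups did not overlap, which held downward for 4% of all genes in WT and 2.83% in NRF2 KO mice. The NRF2 KO means were 12128 ± 1419 and 9692 ± 471 CPM (n = 6 each), 20.1% lower on MR (log2 fold change -0.32 ± 0.09, adjusted p = 0.0166; exact permutation p = 0.0022, the smallest for 6 against 6). This NRF2 KO call was lost without KO_CON_7618 (-0.26) and with scaling by library size alone (-0.17, adjusted p = 0.235).

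Apoe, the remnant ligand, fell in NRF2 KO mice and missed the threshold in WT mice. In NRF2 KO Con mice it ran from 28404 to 36821 CPM (median 31385), and in NRF2 KO MR mice from 22106 to 26804 (median 23757), without overlap. The means were 32277 ± 2981 and 24035 ± 1613 CPM (n = 6 each), 25.5% lower (log2 fold change -0.43 ± 0.10, adjusted p = 0.0048; exact permutation p = 0.0022). The WT Con mice measured 24976 (the library labelled WT_CON_7607), 26427, 31825, 34605 and 35020 CPM, and the WT MR mice 23366, 23702, 24135, 25777 and 28137 CPM. The WT groups overlapped, because the 2 lowest WT Con mice lay among the WT MR mice. The WT means were 30571 ± 4640 and 25024 ± 1971 CPM (n = 5 each), with a log2 fold change of -0.29 ± 0.10 (adjusted p = 0.0655; exact permutation p = 0.0556). Without the library labelled WT_CON_7607 the WT difference passed the threshold (-0.35, adjusted p = 0.0255), as it did without WT_CON_7608.

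Apoc1, the neighbour of Apoe on chromosome 7, was lower on MR in the average over genotypes (log2 fold change -0.35 ± 0.11, adjusted p = 0.017) and passed in neither genotype alone. The averaged call was lost with 2 covariates described further on, the TMM factor (0.02, adjusted p = 0.898) and a circadian clock score (-0.15, adjusted p = 0.52), and kept without the library labelled WT_CON_7607 (-0.40, adjusted p = 0.005). The WT Con mice measured 3360 (the library labelled WT_CON_7607), 3626, 5104, 5770 and 5802 CPM, and the WT MR mice 2765, 3080, 4100, 4354 and 4410 CPM. In each WT group the mice were split into lower and higher values, and the groups overlapped (4732 ± 1169 against 3742 ± 765 CPM, n = 5 each, log2 fold change -0.34 ± 0.16, adjusted p = 0.162; -0.44 and 0.0656 without the library labelled WT_CON_7607). NRF2 KO Con mice ran from 4251 to 5373 CPM (median 4636) and NRF2 KO MR mice from 2938 to 4910 (median 3525), with means of 4721 ± 413 and 3661 ± 686 CPM (n = 6 each). That log2 fold change was -0.37 ± 0.15 (adjusted p = 0.0981; exact permutation p = 0.0108).

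Apoc2, the activator of lipoprotein lipase, gave the largest fold change among those of the 10 that were called. It was a low signal: the WT Con mice measured 7.59 (the library labelled WT_CON_7607), 8.99, 11.2, 12.2 and 13 CPM, and the WT MR mice 3.20, 3.47, 4.49, 5.09 and 8.30 CPM. WT_MR_7609 was the one WT MR mouse that reached the WT Con range. The means were 10.6 ± 2.25 and 4.91 ± 2.04 CPM (n = 5 each), a log2 fold change of -1.07 ± 0.24 (adjusted p = 0.00462; exact permutation p = 0.0159), and without the library labelled WT_CON_7607 it was -1.16 (adjusted p = 0.00368). In NRF2 KO mice Apoc2 ran from 4.81 to 11.2 CPM on Con (median 7.19) and from 2.92 to 5.11 on MR (median 4.11), so that the highest MR mice reached the lowest Con mice. The NRF2 KO means were 7.85 ± 2.51 and 4.01 ± 0.717 CPM (n = 6 each), a log2 fold change of -0.98 ± 0.22 (adjusted p = 0.00476; exact permutation p = 0.0043). The reads could include those of Gm44805, which shares most of its exonic bases.

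Apoc3, the inhibitor of lipoprotein lipase and the neighbour of Apoa1, fell in both genotypes. The WT Con mice measured 1922, 2087 (the library labelled WT_CON_7607), 2895, 3136 and 4008 CPM, and the WT MR mice 1581, 1692, 1759, 2153 and 2162 CPM. The lowest WT Con mice lay within the WT MR range. The means were 2809 ± 846 and 1869 ± 270 CPM (n = 5 each), 33.5% lower (log2 fold change -0.59 ± 0.18, adjusted p = 0.0276; exact permutation p = 0.0476), and -0.67 (adjusted p = 0.0161) without the library labelled WT_CON_7607. The WT call did not hold without any one of WT_CON_7603, WT_CON_7605, WT_MR_7609, WT_MR_7613 or WT_MR_7615, with values from -0.43 to -0.70 over all 22 such fits, nor with the clock score as a covariate (-0.54, adjusted p = 0.266). In NRF2 KO mice Apoc3 ran from 1920 to 3524 CPM on Con (median 2565) and from 1424 to 2097 on MR (median 1698). The means were 2667 ± 592 and 1734 ± 234 CPM (n = 6 each), 35.0% lower (log2 fold change -0.62 ± 0.16, adjusted p = 0.0128; exact permutation p = 0.0043).

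Apoa2, the second HDL protein, was lower on MR only in the average over genotypes (log2 fold change -0.22 ± 0.08, adjusted p = 0.0446), a call lost in 15 of the 22 fits that leave out 1 mouse. Its means were 9328 ± 1457 and 8330 ± 855 CPM in WT Con and WT MR mice (n = 5 each) and 9442 ± 1533 and 7769 ± 556 CPM in NRF2 KO Con and NRF2 KO MR mice (n = 6 each), and the ranges overlapped in both genotypes. Neither genotype alone passed (-0.16 ± 0.12, adjusted p = 0.406, and -0.28 ± 0.11, adjusted p = 0.0939).

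Apoa4 varied most between mice, with a 31.1-fold range over the 22 mice and a within-group SD of 1.13 on the log2 scale. WT Con mice measured 158, 161 (the library labelled WT_CON_7607), 251, 571 and 1208 CPM, and WT MR mice 79.9, 84.4, 135, 150 and 681 CPM. In NRF2 KO mice it ran from 155 to 766 CPM on Con (median 204) and from 38.8 to 214 on MR (median 71.0). The log2 fold changes for diet were -1.05 ± 0.75 in WT and -1.60 ± 0.69 in NRF2 KO mice, and neither passed the test (adjusted p = 0.391 and 0.142).

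Apoa5, which lies in the same cluster as Apoa1 and Apoc3, showed no detectable diet difference. It stood at 891 ± 128 and 889 ± 80.5 CPM in WT Con and WT MR mice (n = 5 each, log2 fold change -0.003 ± 0.10, 95% interval -0.21 to 0.20), and at 1091 ± 128 and 979 ± 84.7 CPM in NRF2 KO Con and NRF2 KO MR mice (n = 6 each, -0.16 ± 0.09, adjusted p = 0.302). Of the 4 clustered genes of chromosome 9, Apoa1 and Apoc3 passed the test in both genotypes, and Apoa4 and Apoa5 in neither.

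The core of VLDL assembly, Apob and Mttp, was not called for diet. Without the library labelled WT_CON_7607 the diet values in WT mice of the genes not yet given that way were -0.22 for Apoa2, -1.26 for Apoa4, -0.03 for Apoa5, -0.08 for Apob and 0.02 for Mttp, again with no call. Apob stood at 514 ± 76.5 and 482 ± 71.2 CPM in WT Con and WT MR mice (n = 5 each, log2 fold change -0.09 ± 0.23, adjusted p = 0.834). In NRF2 KO Con mice it ran from 207 to 648 CPM (median 494), with KO_CON_7622 and KO_CON_7623 at the low end, and in NRF2 KO MR mice from 277 to 383 (median 351). The NRF2 KO means were 444 ± 181 and 344 ± 36.5 CPM (n = 6 each, -0.37 ± 0.21, adjusted p = 0.262), and the difference passed the threshold without KO_CON_7622. Mttp had the narrowest spread, at 114 ± 11.6, 118 ± 3.39, 122 ± 14.8 and 112 ± 5.86 CPM in WT mice on Con and MR and then in NRF2 KO mice on Con and MR. Its log2 fold changes for diet were 0.06 ± 0.08 in WT (95% interval -0.10 to 0.22) and -0.13 ± 0.07 in NRF2 KO mice (-0.28 to 0.01).

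The 10 genes together took 5.76% ± 0.194 of all counts of a library in WT Con, 4.91% ± 0.190 in WT MR, 5.99% ± 0.467 in NRF2 KO Con and 5.11% ± 0.162 in NRF2 KO MR mice (SD, n = 5, 5, 6 and 6). Within each genotype the MR and Con mice did not overlap in this share (WT 4.73 to 5.21% on MR and 5.56 to 6.06% on Con; NRF2 KO 4.86 to 5.34% and 5.45 to 6.75%). Without the library labelled WT_CON_7607 the WT Con share was 5.81% ± 0.185 (n = 4). The share is set by the genes with most counts, chiefly Apoe, Apoa1 and Apoa2.

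Several of these genes also followed the TMM factor of a library, which scales for composition, within groups. The Pearson r of deviations from group means with the log2 factor, over the 22 mice and given as a description, was -0.89 for Apoc1, -0.84 for Apoe, -0.84 for Apoc3 and -0.74 for Apoa2, but 0.33 for Apoa1 and -0.31 for Apoc2. The CPM itself is divided by this factor, and the factor was higher on MR (means 1.03 and 1.06) than on Con (0.969 and 0.949). In NRF2 KO mice it ran from 0.913 to 1.004 on Con and from 0.985 to 1.098 on MR. The factor and the diet therefore cannot be fully told apart there, and a call lost with this covariate does not show which of them it followed. With the log2 factor as a covariate, a setting chosen after the values were seen, Apoa1 kept its calls in WT (-0.68, adjusted p = 3.52e-05) and NRF2 KO mice (-0.40, adjusted p = 0.0121) and Apoc2 its call in WT (-0.91, adjusted p = 0.019). The calls of Apoc2 in NRF2 KO mice (-0.77, adjusted p = 0.0767), Apoc3 in WT (-0.25, adjusted p = 0.147) and NRF2 KO mice (-0.15, adjusted p = 0.458) and Apoe in NRF2 KO mice (-0.20, adjusted p = 0.117) were lost. In the average over genotypes Apoa1 (-0.54, adjusted p = 2.11e-05) and Apoc2 (-0.84, adjusted p = 0.00597) kept their calls, and Apoa2 (0.0000, adjusted p = 1), Apoc1 (0.02, adjusted p = 0.898), Apoc3 (-0.20, adjusted p = 0.123) and Apoe (-0.17, adjusted p = 0.0545) lost theirs.

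**Figure D3:**
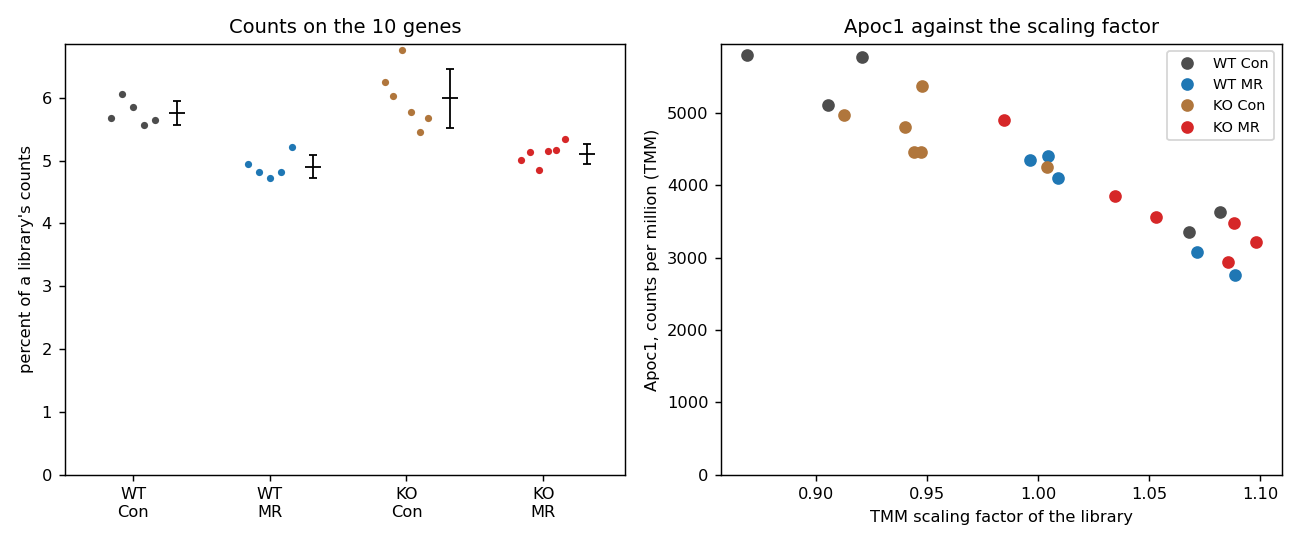
Left, percent of a library's counts on the 10 genes in each mouse (points) with mean ± SD in black; MR mice lie below Con mice in both genotypes. Right, Apoc1 (CPM after TMM scaling) against the TMM factor of the same library, with 1 point per mouse coloured by group; Apoc1 was lower where the factor was higher, within groups too (r = -0.89 over 22 mice).

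Markers of other liver cells moved with diet as well, not all in the same direction. Of all genes, 6.91% were called as lower and 6.91% as higher in WT mice, and 6.34% and 6.23% in NRF2 KO mice. All 9 endothelial markers were in the table, and 1 rose in WT and 2 in NRF2 KO mice, while none fell at an adjusted or unadjusted p. Their summed level was 398 to 478 CPM in WT Con and 441 to 489 in WT MR mice, and 426 to 474 in NRF2 KO Con and 476 to 495 in NRF2 KO MR mice. Of the 12 markers of macrophages, cells that also express Apoe, 11 were in the table (Clec4f was not). On MR, 6 of them fell in WT and 3 in NRF2 KO mice, and none rose. Their summed level ran from 462 to 609 CPM in WT Con and from 361 to 409 in WT MR mice, and from 392 to 590 in NRF2 KO Con and from 348 to 469 in NRF2 KO MR mice. All 12 stellate cell markers were in the table, and 7 fell in WT and 5 in NRF2 KO mice, while none rose. Their summed level was 575 to 883 and 482 to 606 CPM in WT Con and WT MR mice, and 649 to 733 and 551 to 669 CPM in NRF2 KO Con and NRF2 KO MR mice. Of 9 enterocyte markers, which bear on Apoa4, 4 were in the table, while Lct, Sis, Alpi, Rbp2 and Mep1a were not. Of these 4, 1 rose and 1 fell in WT mice, and 2 rose and 1 fell in NRF2 KO mice. Their summed level was 166 to 253 CPM in WT Con and 136 to 195 in WT MR mice, and 186 to 231 in NRF2 KO Con and 141 to 185 in NRF2 KO MR mice. Fabp2 was at 131 ± 31.5 CPM in WT Con and 85.1 ± 26.6 in WT MR mice (133 ± 20.2 and 72.8 ± 15.1 in NRF2 KO mice; n = 5 and 6 a group). Vil1 ran from 0.104 to 1.23 CPM in WT Con and from 1.79 to 13.1 in WT MR mice, and from 0.198 to 1.73 in NRF2 KO Con and from 3.38 to 9.42 in NRF2 KO MR mice. The summed level of the 6 bile duct markers did not overlap between diets, at 49.4 to 73.3 CPM in WT Con and 20.9 to 28.3 in WT MR mice, and 31.8 to 53.6 in NRF2 KO Con and 20.7 to 29.0 in NRF2 KO MR mice. Of the 5 tested markers, 4 fell in WT and 1 in NRF2 KO mice, and none rose. Most of this sum came from Sox9 and Spp1 (means of 30.0 and 24.7 CPM in WT Con mice). Krt19, Krt7, Epcam and Cftr had means of 1.29, 1.17, 2.55 and 0.385 CPM there. How often sums of other genes separate was not computed. The part of these cells in the differences was not tested.

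Genotype was next compared on each diet, which asks whether loss of NRF2 in hepatocytes shifts these genes. On MR, Apoa1 was the 1 gene of 10 called, where 1.93% of all genes were called and 0.555% as higher. All 6 NRF2 KO MR mice (9320 to 10386 CPM) lay above all 5 WT MR mice (6193 to 7553 CPM), so that Apoa1 was 41.5% higher (log2 fold change 0.50 ± 0.09, adjusted p = 0.00246; exact permutation p = 0.0022, the smallest for 6 against 5). Of all genes, 1.69% showed such a separation upward and 2.91% downward. The call did not rest on a single mouse, being kept in 22 of 22 fits that leave out 1 mouse (0.46 to 0.54; adjusted p = 0.0011 when WT_CON_7607 was left out). Apob showed the opposite separation, with all 6 NRF2 KO MR mice (277 to 383 CPM) below all 5 WT MR mice (400 to 573 CPM), but its log2 fold change of -0.49 ± 0.22 did not pass the test over all genes (adjusted p = 0.31; exact permutation p = 0.0022), though it did in a fit of the MR mice alone (adjusted p = 0.00775). The other 8 genes overlapped between genotypes on MR.

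On Con, none of the 10 genes was called by edgeR, where 2.07% of all genes were. The tested alternatives, DESeq2 among them, called none of them either, and 1 of 10 had an unadjusted p under 0.05. That gene was Apoa5, at 891 ± 128 CPM in WT and 1091 ± 128 in NRF2 KO mice (log2 fold change 0.29 ± 0.10, adjusted p = 0.144; exact permutation p = 0.0325), or 0.26 (adjusted p = 0.221) without the library labelled WT_CON_7607. Apoa1 was 0.19 ± 0.09 higher on the log2 scale (adjusted p = 0.35), and 0.25 (adjusted p = 0.173) without that library, where the other 8 genes ran from -0.72 (Apoa4) to 0.07 (Mttp). In the average over diets, Apoa1 was again the 1 gene called (0.34 ± 0.07, adjusted p = 0.00154), against 5.45% of all genes. A circadian clock score, the mean log2 CPM of 5 clock genes such as Arntl minus that of 7 such as Dbp, was higher in WT Con (-3.36 to -1.16) than in NRF2 KO Con mice (-4.65 to -4.17), without overlap. On MR the genotypes did not overlap in the score either (-4.44 to -2.93 in WT and -4.92 to -4.56 in NRF2 KO mice). This score and the genotype therefore cannot be fully told apart on either diet. The score was also lower on MR than on Con, with means of -3.91 and -2.43 in WT and -4.71 and -4.40 in NRF2 KO mice. With the score as a covariate the average for Apoa1 was 0.23 (adjusted p = 0.37), and its difference on MR 0.44 (adjusted p = 0.0458). For diet, the averaged calls of Apoa2 (-0.18, adjusted p = 0.308) and Apoe (-0.28, adjusted p = 0.0559) were lost with it, and those of Apoa1, Apoc2 and Apoc3 (-0.57, adjusted p = 0.0302) kept.

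**Figure D4:**
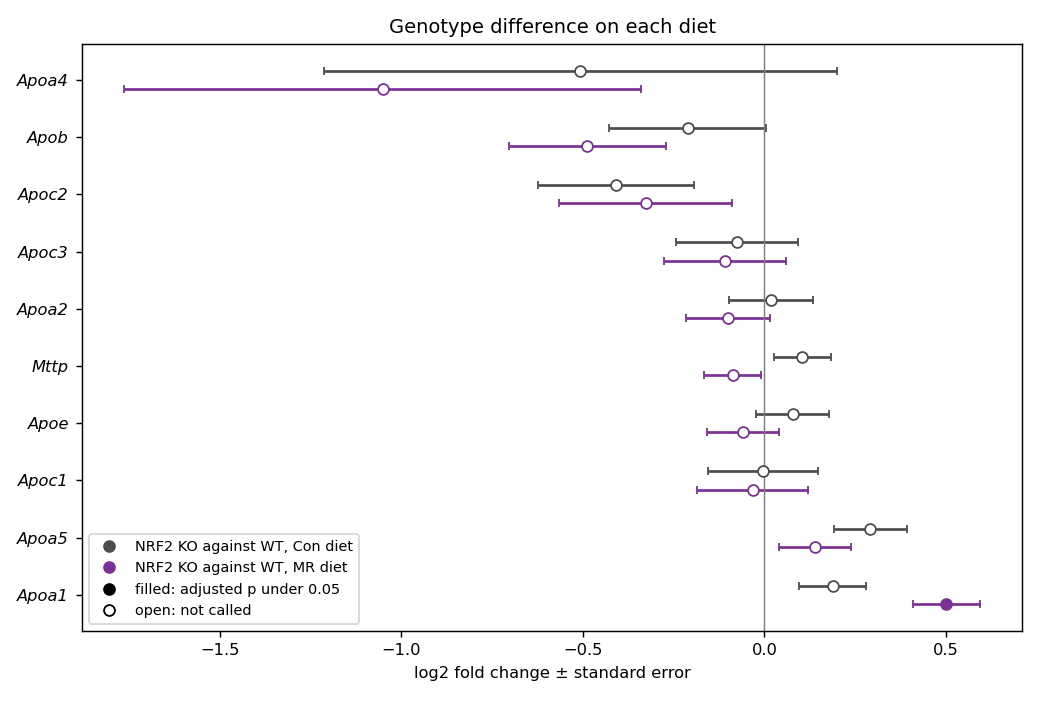
Log2 fold change of NRF2 KO against WT (horizontal axis, ± standard error) for each gene on Con and on MR from the quasi-likelihood fit; filled points passed an adjusted p of 0.05. Apoa1 on MR (0.50) is the 1 filled point, and Apob (-0.49) and Apoa4 (-1.05) on MR lie below 0 with wider errors.

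Whether the diet difference itself depended on genotype was tested as an interaction. None of the 10 genes was called, 1 had an unadjusted p under 0.05, DESeq2 called none, and 0.045% of all genes were called. For Apoa1 the diet difference was smaller by 0.31 ± 0.13 on the log2 scale in NRF2 KO mice (95% interval 0.06 to 0.57; unadjusted p = 0.0238, adjusted p = 0.567), and by 0.25 without the library labelled WT_CON_7607. For the remaining 9 genes the interaction ran from -0.54 (Apoa4) to 0.08 (Apoc2). The ratio of Apoa1 to another of the 10 genes in the same library does not depend on how libraries are scaled. Its log2 value was higher in every NRF2 KO MR mouse than in every WT MR mouse for 5 of the 9 ratios (to Apoa2, Apob, Apoc3, Apoe and Mttp), for example -1.41 to -1.19 against -2.18 to -1.63 for Apoa1 to Apoe. On Con, 0 of 9 ratios separated the genotypes. Between diets, every WT MR mouse lay below every WT Con mouse for 2 of 9 ratios (to Apoa5 and Mttp), and 0 of 9 did so in NRF2 KO mice. All 9 ratios share Apoa1, whose level alone already separated the genotypes on MR, so they are not separate results and add no independent support. How often ratios of other genes separate was not computed.

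Within groups the genes fell into those that varied together and those that did not. Over the 22 mice the Pearson r of deviations from group means was 0.87 for Apoa2 with Apoc3, 0.84 for Apoa2 with Apoe, 0.82 for Apoc3 with Apoe, 0.81 for Apoc1 with Apoe and 0.80 for Apoa5 with Apoc3. Apoa1 ran from -0.46 with Apoc1 to 0.10 with Apoc2, apart from 0.55 with Apob. These are descriptions over mice that share a scaling, and Apoa1 and Apoc3, neighbours on chromosome 9, stood at -0.16.

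**Figure D5:**
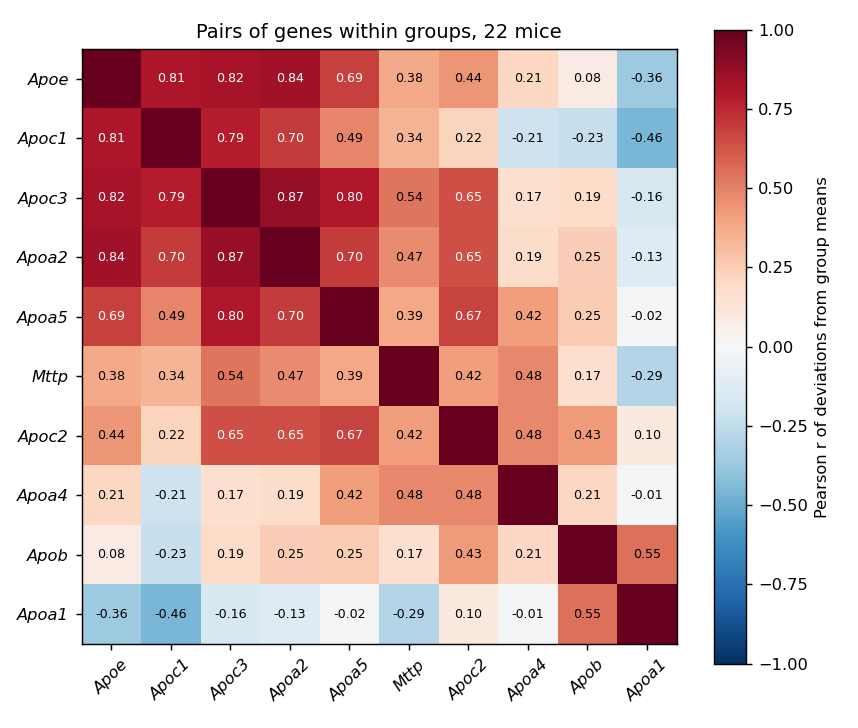
Pearson r of the deviations of log2 CPM from group means for each pair of the 10 genes over 22 mice (colour and number, scale from -1 to 1). Apoe, Apoc1, Apoc3, Apoa2 and Apoa5 form a block of positive values (up to 0.87), and Apoa1 is near 0 or below with all but Apob (0.55).

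Among 6880 other genes with a mean of at least 10 CPM, those most like each of the 10 by Pearson r of log2 CPM over the 22 mice were as follows. Apoa1 was most like Ecm1 (0.87), which is also in the list of stellate cell markers, and Plxnb1 (0.85). Apoa2 was most like Cyp2d22 (0.88) and Gcdh (0.88), Apoa4 like Arsg (0.86) and Lgals8 (0.85), and Apoa5 like Dgat2 (0.86), an enzyme of triglyceride synthesis, and Ttc23 (0.81). Apob was most like Glg1 (0.98) and Snord89 (0.97), Apoc1 like Ndufa3 (0.92) and Nit2 (0.91), and Apoc2 like Lgals9 (0.93) and Tmem176a (0.89). Apoc3 was most like Masp2 (0.95) and Ndufa13 (0.95), Apoe like Higd2a (0.94) and Pccb (0.93), and Mttp like Fbp1 (0.77) and Gm11789 (0.75). Within groups, r was 0.15 for Apoa1 with Plxnb1 and 0.73 with Ecm1, and 0.66 to 0.98 for the other 18 pairs.

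The wider lipoprotein pathway was followed in 6 lists with 122 other genes, of which 120 were tested (Apod and Lrp8 were not in the table). On MR, 13 rose and 11 fell in WT mice, and 12 rose and 13 fell in NRF2 KO mice. The median log2 fold change of these 120 genes was -0.01 in WT and -0.03 in NRF2 KO mice, beside -0.0062 and -0.0042 over all genes. The called shares were thus 10.8% up and 9.17% down in WT and 10% up and 10.8% down in NRF2 KO mice, against 6.91% and 6.91%, and 6.23% and 6.34%, of all genes.

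Among 16 other apolipoproteins and lipoprotein proteins, 2 rose and 5 fell in WT mice, and 1 rose and 7 fell in NRF2 KO mice. The largest falls were in Saa2 and Saa1, acute phase apolipoproteins of HDL, with log2 fold changes of -2.84 ± 0.62 and -2.13 ± 0.47 in WT mice (adjusted p = 0.00564 and 0.00594) and of -2.68 ± 0.54 and -2.10 ± 0.42 in NRF2 KO mice (adjusted p = 0.00369 and 0.00329). The WT calls were lost with the clock score as a covariate (-3.16, adjusted p = 0.0737, and -2.19, adjusted p = 0.0914), and the NRF2 KO calls with the TMM factor (-1.56, adjusted p = 0.0787, and -1.21, adjusted p = 0.0846). They are close copies of each other, so the split of reads between them is uncertain. Apom, an HDL protein that carries sphingosine-1-phosphate, rose by 0.74 in both genotypes (± 0.12 and ± 0.11, adjusted p = 0.000392 and 0.00018). Apol9b, which also has a near copy, fell in NRF2 KO mice (-1.15 ± 0.32, adjusted p = 0.0233) and stood at -0.57 in WT mice (adjusted p = 0.291).

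Among 33 genes of VLDL assembly and secretion, 4 rose and 1 fell in WT mice, and 5 rose and 3 fell in NRF2 KO mice. Tm6sf2, which promotes lipidation of VLDL, rose in both (0.45 ± 0.11, adjusted p = 0.00758, and 0.53 ± 0.10, adjusted p = 0.00107). Ces1g, a carboxylesterase with near copies, rose in NRF2 KO mice (1.64 ± 0.26, adjusted p = 0.000592) and stood at 0.83 ± 0.28 in WT mice (adjusted p = 0.0509, or 0.59 and 0.00916 without the library labelled WT_CON_7607). Its relative Ces1d, which mobilizes triglyceride for VLDL, rose in NRF2 KO mice (0.58 ± 0.18, adjusted p = 0.0407), and Calr, a chaperone of the endoplasmic reticulum, fell there (-0.52 ± 0.13, adjusted p = 0.0127). In WT mice these stood at 0.38 (adjusted p = 0.219) and -0.36 (adjusted p = 0.101).

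None of the 9 genes of HDL formation was called in either genotype by edgeR, where 3 in each had an unadjusted p under 0.05 and DESeq2 called 1 (lower) in WT and 0 in NRF2 KO mice. In the average over genotypes 3 of the 9 were called, where 27.4% of all genes were, so the count alone does not set this list apart. Named after their values were seen, Abcg5 (0.30 ± 0.10) and Abcg8 (0.35 ± 0.11), the sterol exporter of bile, rose, and Pltp, the phospholipid transfer protein, fell (-0.47 ± 0.14). Among 7 genes of lipoprotein lipase and its regulators, Lmf1, a maturation factor of lipases, fell in both genotypes (-0.36 ± 0.11, adjusted p = 0.0274, and -0.42 ± 0.10, adjusted p = 0.00723). Angptl4, an inhibitor of lipoprotein lipase, rose in WT mice (0.63 ± 0.20, adjusted p = 0.0407) and stood at 0.10 in NRF2 KO mice (adjusted p = 0.767).

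Among 16 receptors and uptake genes, 2 rose and 3 fell in WT mice, and 3 rose and none fell in NRF2 KO mice (2 fell at an unadjusted p under 0.05, and none with DESeq2). Vldlr, the VLDL receptor, rose by 1.95 ± 0.42 in WT and 1.99 ± 0.36 in NRF2 KO mice (adjusted p = 0.00453 and 0.00158). The WT call was lost with the clock score as a covariate (0.93, adjusted p = 0.404) and the NRF2 KO call with the TMM factor (1.11, adjusted p = 0.0752). Sorl1 and Lrp5, receptors of the LDL receptor family, fell in WT mice (-0.84 ± 0.26, adjusted p = 0.0305, and -0.44 ± 0.12, adjusted p = 0.0173). In NRF2 KO mice they stood at -0.20 (adjusted p = 0.619) and -0.13 (adjusted p = 0.48).

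Among 39 transcriptional regulators, 4 rose and 1 fell in WT mice, and 3 rose and 2 fell in NRF2 KO mice. Nr1d2, a clock repressor, rose in both (0.35 ± 0.12, adjusted p = 0.0498, and 0.32 ± 0.11, adjusted p = 0.0478), a call near the threshold that was lost in 15 and 8 of the 22 fits that leave out 1 mouse. Atf5, a stress factor, rose in WT mice (0.61 ± 0.18, adjusted p = 0.0232) and stood at 0.28 in NRF2 KO mice (adjusted p = 0.28). Cebpa, a hepatocyte factor, fell in NRF2 KO mice (-0.47 ± 0.10, adjusted p = 0.00315) and stood at -0.28 in WT mice (adjusted p = 0.0829). The interaction was called for none of the 120 genes by edgeR or DESeq2, and 7 had an unadjusted p under 0.05.

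Over the fits that leave out 1 mouse, diet calls of 7 of these genes besides Nr1d2 were lost in some: in WT mice Lmf1 (without WT_CON_7605, WT_MR_7613, WT_MR_7615 or WT_MR_7616), Lrp5 (WT_MR_7613 or WT_MR_7616), Atf5 (WT_MR_7609, WT_MR_7615 or the library labelled WT_CON_7607), Angptl4 (6 of 22 fits) and Sorl1 (7 of 22), and in NRF2 KO mice Apol9b (KO_CON_7617 or KO_MR_7629) and Ces1d (8 of 22).

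Without the library labelled WT_CON_7607, the WT diet calls stood for Saa2 (-2.98), Saa1 (-2.27), Apom (0.77), Tm6sf2 (0.38), Lmf1 (-0.41), Angptl4 (0.81), Vldlr (2.15) and Lrp5 (-0.39). They were lost for Sorl1 (-0.82, adjusted p = 0.055), Atf5 (0.59, adjusted p = 0.0529) and Nr1d2 (0.34, adjusted p = 0.0788). With the clock score as a covariate, the WT calls of Tm6sf2, Lmf1, Angptl4, Sorl1, Lrp5, Atf5 and Nr1d2 did not hold either (0.34, -0.50, 0.59, -1.13, -0.31, 0.48 and 0.36), nor that of Nr1d2 in NRF2 KO mice (0.33). Nr1d2 is itself among the genes that make up this score. The loss of the Nr1d2 calls with this covariate is therefore partly built in, and no conclusion is drawn from it. With the TMM factor, the WT calls of Lmf1 (-0.24), Angptl4 (0.51), Atf5 (0.51) and Nr1d2 (0.33) and the NRF2 KO calls of Apol9b (-0.51), Calr (-0.29), Lmf1 (-0.24), Cebpa (-0.31) and Nr1d2 (0.29) were lost. The calls of Apom held in both genotypes with either covariate.

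For genotype on Con, 6 of the 120 genes were higher in NRF2 KO mice and 1 lower, named after their values were seen. The higher ones were Lpin1, a phosphatidate phosphatase (1.07), the transcription factors Foxa3 (0.71) and Foxo1 (0.50), the bile acid receptor Nr1h4 (0.48), Dgat2 (0.47) and the nuclear receptor Esrra (0.45), and the lower one was Ces1g (-2.54). None of the 7 was called with the clock score as a covariate, at values of 0.81 for Lpin1, 0.36 for Foxa3, 0.69 for Foxo1, 0.53 for Nr1h4, 0.45 for Dgat2, 0.23 for Esrra and -2.40 for Ces1g, of which those of Lpin1, Foxo1, Nr1h4, Dgat2 and Ces1g were within 1.5 times of the values without it. Without the library labelled WT_CON_7607, the calls stood for Lpin1 (1.07), Foxa3 (0.83), Foxo1 (0.44), Nr1h4 (0.43), Esrra (0.46) and Ces1g (-2.78). The call of Dgat2 was lost in 10 of 22 fits that leave out 1 mouse (0.38, adjusted p = 0.0924, when WT_CON_7607 was left out), and that of Foxa3 in 7 of 22. On MR, Ces1g alone was called, as lower (-1.73 ± 0.27, adjusted p = 0.000779). At an unadjusted p under 0.05, 5 genes were higher and 11 lower, and DESeq2 called 1 as higher and 3 as lower.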

How the data were processed

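Liver RNA of 24 mice was measured as QuantSeq 3′ libraries, which the authors mapped and counted with the kit maker's pipeline (Lexogen, version 2.3.6; GRCm38/mm10 per the labels; the aligner and annotation were not given in the sources used here). The counts are raw reads per gene as deposited by the authors. The deposited signal values are these counts after the authors' scaling by a DESeq2 size factor per mouse (DESeq2 1.18.1 in R 3.4.3 per the labels); dividing the raw counts by 1 factor per mouse gave the deposited values to a largest relative deviation of 5.2e-15. They were used for 1 alternative. No values of the study's own comparisons were used.

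The counts of 22 mice were fitted with edgeR 4.0.16 in R 4.3.3 (TMM, filter by expression, robust quasi-likelihood tests), all 4 groups together with 1 mean each, which kept 13336 of 15160 genes and left out 1824. The Benjamini-Hochberg adjustment ran over all 13336, and a gene below 0.05 was called. A standard error is the absolute log2 fold change over the square root of F. The 95% intervals use this error with a normal quantile, so they are somewhat narrower than the F test implies. Each gene was also compared over mice by an exact two-sided permutation test of mean log2 CPM (prior count 2). The fit was tested on simulated counts. The 10 genes, the pathway lists, the markers and the motifs were chosen with earlier results of these data known. The text names every one of the 10 genes, up to 4 pathway genes per list by the average diet difference among those called in either genotype, and the 2 most similar genes per member. Some of the pathway genes that this rule selects are not reported here. Alternatives were computed with DESeq2 1.42.0 and limma 3.58.1 besides edgeR. The depth, 6197291 to 22068338 counts per library, limits precision chiefly for Apoc2.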

Additional observations from a re-analysis of the deposited data

Results flagged for a closer look

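Of 40 groups of values examined (10 genes in 4 groups), 1 held a mouse far from the others, where chance would flag about 1 group in 20. Apoa4 measured 681 CPM in WT_MR_7609, against 79.9 to 150 CPM in the other 4 WT MR mice analysed. It was high in both mice that the study left out, at 1198 CPM in WT_MR_7612 and 1082 in WT_CON_7604 (scaled with all 24 mice). With all 24 mice its log2 fold change for diet was -0.56 in WT mice (edgeR quasi-likelihood, adjusted p = 0.663) and -1.08 in the average over genotypes (adjusted p = 0.139). Without this mouse the log2 fold change of Apoa4 for diet in WT mice was -2.07 (edgeR quasi-likelihood, adjusted p = 0.0785) in place of -1.05, and the average over genotypes passed the threshold (-1.83, adjusted p = 0.00929).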

How the results depend on the processing

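No paired analysis was possible because no mouse number is shared between groups. Apoa1 kept its diet call in WT mice and its higher level in NRF2 KO mice on MR in all 11 alternatives and all 22 fits that leave out 1 mouse. Of 2280 values recomputed for the 10 genes, 101 changed sign, 16 of them with a value called or more than 1 standard error from 0.

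With the clock score as a covariate, 1009 genes were called for MR in WT, 2357 (3 of the 10 genes) for MR averaged, 8 for genotype on Con, 142 on MR and 58 (0 of the 10) averaged, and Apoc1 reversed in WT (0.0011 for diet) and for genotype (0.45 on Con, 0.15 on MR, 0.30 averaged). With the log2 TMM factor as a covariate, 436 were called for genotype on Con and 13 for the interaction, and 1 of the 10 for MR in NRF2 KO mice and 2 for the averages of MR and of genotype. Diet values reversed there for Apoa2 (0.0135 in WT, 0.0000 averaged), Apoa5 (0.11 in WT, 0.0123 in NRF2 KO, 0.0624 averaged), Apoc1 (0.0716 in NRF2 KO, 0.0171 averaged) and Mttp (0.0567 averaged). With library size alone, 2785 were called for MR in NRF2 KO mice and 2 of the 10 for genotype averaged, and diet values reversed for Apoa5 (0.10 in WT, 0.0516 averaged), Mttp (0.0239 in NRF2 KO, 0.0921 averaged) and Lrp5 (0.0316 in NRF2 KO); calls of MR averaged were then 20.3% lower beside 51.5%, and of genotype on Con 72.4% beside 61.2%. Quality weights over all 24 mice called 2739 genes (7 of the 10) for MR in NRF2 KO mice, 615 for genotype on MR and 2 of the 10 averaged, and all 24 mice without weights 2 of the 10 averaged. DESeq2 called 449 and 484 for genotype on Con and MR, 33 for the interaction and 2 of the 10 averaged. A fit of only the groups compared called 99 on Con and 600 (2 of the 10) on MR, with fewer mice to estimate the spread. For the other settings the cause was not tested.

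Leaving out 1 mouse gave 1416 to 1974 genes for MR in WT (2 to 4 of the 10), 1188 to 2027 for MR in NRF2 KO (3 to 6), 3336 to 3889 for MR averaged (5 to 6), 181 (without WT_CON_7603) to 314 for genotype on Con (0), 191 to 336 on MR (1), 548 to 849 averaged (1 to 2, with Apoa5 added without WT_CON_7605 or KO_CON_7623) and 3 to 12 for the interaction (0). Calls were added for Apoa2 and Apob in NRF2 KO mice without KO_CON_7622, and for Apoc1 there without KO_MR_7632.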
